A study of Mus musculus with 2 samples.

Results

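Notch1, Notch2, Jag1, Dll1, Dll4, Hes1, Hes6, Atoh1, Gfi1 and Spdef, the receptors, ligands, targets and secretory transcription factors of the Notch decision in the gut epithelium, were followed as 10 of the 31053 genes in the deposited single-cell matrix. They were chosen by name, as listed rows of that matrix. Their unique molecular identifiers (UMIs, counted RNA molecules) were summed by marker-gated cell class over 4066 of 21806 barcodes. A barcode was kept when it showed 500 or more genes and 1000 or more UMIs, with no more than 20% of its UMIs mitochondrial. The study grew mouse small intestinal organoids, epithelial structures that hold stem, absorptive and secretory cells but no surrounding tissue, as a control group and a melatonin-treated group. The labels used here name no mouse strain or genotype and give no melatonin dose with a unit. Each group was 1 droplet-based 3′ library from 3 organoid lines that had been mixed on day 3 of culture, so lines cannot be told apart and there was no replicate. The files of both samples were identical (3 of 3), and barcodes carry the suffix 1 or 2, here called set 1 and set 2, which no label ties to a treatment. Values are therefore given for both sets, and neither set is read as control or melatonin.

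In the Notch pathway a ligand of the Delta or Jagged family on one cell engages a receptor on its neighbour, and the freed receptor fragment joins the DNA-binding protein RBPJ to switch on repressors of the Hes family. In the intestinal crypt this keeps stem cells and absorptive progenitors from expressing Atoh1, the factor that commits a cell to the secretory lineage. Cells that escape the signal express Atoh1 and ligands, and Gfi1 and Spdef act after Atoh1 in goblet and Paneth cells, while Neurog3 directs enteroendocrine cells.

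Promoter sequence is shown for 5 members that the results turn on, Dll4 and Hes6, which were called higher in Neurog3-positive enteroendocrine-like cells, and Dll1, Atoh1 and Spdef, which were high in goblet/Paneth-like cells. The bases are the 250 before each annotated start in RefSeq on build GRCm38.p6, which matched 9 of the 10 members (all but Hes1) with 12 entries, 2 each for Dll1, Hes6 and Gfi1. Capitals mark every match, on either strand, to TGGGAA (the core of the RBPJ site), to the E-boxes CAGCTG or CAGATG (letters bound by basic helix-loop-helix factors such as ATOH1) or to the N-box CACNAG (bound by Hes repressors). No matches overlapped.
Dll4, chr2:119325534-119325783, plus strand: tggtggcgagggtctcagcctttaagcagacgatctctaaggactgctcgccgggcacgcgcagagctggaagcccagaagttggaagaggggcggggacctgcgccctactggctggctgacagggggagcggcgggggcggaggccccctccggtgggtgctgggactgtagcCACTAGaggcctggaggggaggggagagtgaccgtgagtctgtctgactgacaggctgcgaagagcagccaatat
Hes6 entry 1, chr1:91414039-91414288, minus strand: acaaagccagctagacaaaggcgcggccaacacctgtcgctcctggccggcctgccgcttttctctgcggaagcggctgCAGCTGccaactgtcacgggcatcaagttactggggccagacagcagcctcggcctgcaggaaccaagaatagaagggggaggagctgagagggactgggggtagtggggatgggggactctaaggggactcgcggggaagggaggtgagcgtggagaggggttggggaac
Hes6 entry 2, chr1:91413223-91413472, minus strand: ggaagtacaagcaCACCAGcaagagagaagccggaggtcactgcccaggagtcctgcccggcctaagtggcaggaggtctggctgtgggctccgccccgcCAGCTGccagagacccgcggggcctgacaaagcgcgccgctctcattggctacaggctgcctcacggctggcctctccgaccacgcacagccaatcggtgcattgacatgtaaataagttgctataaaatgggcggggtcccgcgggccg
Dll1 entry 1, chr17:15375824-15376073, minus strand: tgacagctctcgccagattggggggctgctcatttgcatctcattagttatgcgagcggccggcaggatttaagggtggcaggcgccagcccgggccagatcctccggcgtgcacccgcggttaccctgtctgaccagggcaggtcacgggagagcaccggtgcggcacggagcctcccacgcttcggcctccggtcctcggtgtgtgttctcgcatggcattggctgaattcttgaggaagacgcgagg
Dll1 entry 2, chr17:15376933-15377182, minus strand: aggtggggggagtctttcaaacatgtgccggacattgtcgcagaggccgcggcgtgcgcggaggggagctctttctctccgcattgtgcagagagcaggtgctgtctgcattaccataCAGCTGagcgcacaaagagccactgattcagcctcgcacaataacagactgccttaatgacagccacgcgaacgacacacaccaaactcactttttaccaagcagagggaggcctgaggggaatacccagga
Atoh1, chr6:64728875-64729124, plus strand: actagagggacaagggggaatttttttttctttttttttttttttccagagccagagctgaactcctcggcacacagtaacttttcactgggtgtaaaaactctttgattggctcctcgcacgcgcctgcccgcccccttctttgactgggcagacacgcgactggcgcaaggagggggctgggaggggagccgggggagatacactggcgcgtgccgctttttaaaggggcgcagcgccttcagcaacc
Spdef, chr17:27728952-27729201, minus strand: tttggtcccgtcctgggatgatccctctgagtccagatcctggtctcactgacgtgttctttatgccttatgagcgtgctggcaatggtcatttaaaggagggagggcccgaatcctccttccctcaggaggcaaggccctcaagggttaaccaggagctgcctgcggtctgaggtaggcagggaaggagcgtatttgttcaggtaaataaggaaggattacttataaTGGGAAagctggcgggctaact

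Spdef was the only matched member with the RBPJ core, which began 22 bases before its start and is held by 21.6% of 32851 promoter windows of the same length. The E-box CAGCTG (in 13.0% of windows) stood in both Hes6 entries, in the second Dll1 entry and in Jag1, and CAGATG (14.4%) in none of the 12. The N-box (36.7%) stood 75 bases before the Dll4 start, in the second Hes6 entry, in Notch1 and in Notch2. Atoh1, both Gfi1 entries and the first Dll1 entry held none of the letters searched. A match is a string of letters and not a measured site.

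Classes were set by the summed level of marker genes, none of which is a member. Crypt-like cells (Lgr5, Olfm4 and other stem markers, outside every differentiated gate) numbered 1367 in set 1 and 983 in set 2, and of these 103 and 204 had low cycling genes. Enteroendocrine-like cells were split by Neurog3, the factor of enteroendocrine progenitors, into Neurog3-positive cells with at least 2 UMIs of it (103 and 61) and later cells (150 and 200). Goblet/Paneth-like cells were few (33 and 15), and in 45 of the 48 the goblet sum was the higher. Their median Paneth sum was 9.09 and 28.5 per 10000 UMIs, against 0 in crypt-like cells of both sets. The Paneth markers Defa17 and Defa24 were among their 10 leading genes, so goblet and Paneth cells are not separated in what follows. Enterocyte-like cells numbered 104 and 165, and tuft-like cells 9 and 2. Cells past a gate of regeneration (revival) markers, such as annexins and Clu, and no other differentiated gate numbered 15 and 29. Their 10 leading genes held 4 of those markers (Anxa1, S100a6, Anxa3 and Msln) but also Crct1, Ly6d, Cnfn and Lor, known from squamous and cornifying epithelium, so they are called annexin-gated and given no cell type. Another 71 cells passed both the enteroendocrine and the goblet/Paneth gate, 31 passed other combinations of gates, and 728 passed none. The kept cells held 61628537 and 51111519 UMIs, with medians per cell of 29872 and 28759. Median depth was 36025 and 33406 in crypt-like, 13798 and 13201 in Neurog3-positive and 14212 and 15685.5 in later enteroendocrine-like cells, and 23753 over the 48 goblet/Paneth-like cells. 29 barcode sequences occurred with both suffixes, 7 kept cells among them. Markers of immune, mesenchymal and endothelial cells summed to 4.93 CPM (defined in the next paragraph) or less per list in each set, with Ptprc, Col3a1, Dcn, Lum and Emcn at 0.

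Levels are CPM, the UMIs of a gene per 1000000 UMIs of the summed cells of a class. They count transcript 3′ ends, so they do not scale with transcript length. How well each gene was captured was not assessed, so levels of different genes are compared as counts only. Brackets after a level hold an exact Poisson interval, and after a ratio an exact conditional binomial one. Shares of cells with a UMI are expected shares after thinning each cell to 5000 UMIs. All intervals are 95% and cover counting error only, and with 1 library per group no test was possible. A gene was called between classes when it differed at least 2-fold with intervals apart in each set, among genes with at least 10 summed UMIs in each set.

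The members showed different patterns in enteroendocrine-like and goblet/Paneth-like cells. Neurog3-positive enteroendocrine-like cells had high Dll4 and Hes6 and low Hes1 and Notch1 against crypt-like cells, so 4 of the 7 members tested were called. Of all 12835 genes tested there, 24.3% were called higher, 6.79% lower and 31.1% in either direction. Goblet/Paneth-like cells had high Dll1, Dll4, Atoh1 and Spdef and no member called lower, 4 of 9 tested, against 2.62% of all genes higher, 1.38% lower and 4.01% in either direction. Atoh1 and Spdef reached the UMI minimum in set 2 only through this class, so their part of the count had to come out high. Later enteroendocrine-like cells kept high Dll4 and low Hes1 and Notch1 (3 of 7, against 23.8% higher, 8.83% lower and 32.7% in either direction). Enterocyte-like cells had low Notch1 and Notch2 (2 of 7, against 9.7% higher, 13.3% lower and 23% in either direction), and these calls depended on the filters. The median gene was itself 0.44 and 0.42 log2 units higher in Neurog3-positive than in crypt-like cells in sets 1 and 2, and 0.37 and 0.29 higher in later enteroendocrine-like cells, while the members' medians were 0.17 and -0.08, and 0.01 and 0.15. In enterocyte-like cells the median gene lay at -0.19 and -0.22 and the 7 members tested at -0.36 and -0.23. In goblet/Paneth-like cells the median gene lay at -0.03 and -0.16 and the 9 members tested, Atoh1 and Spdef among them, at 1.26 and 0.80.

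**Figure D1:**
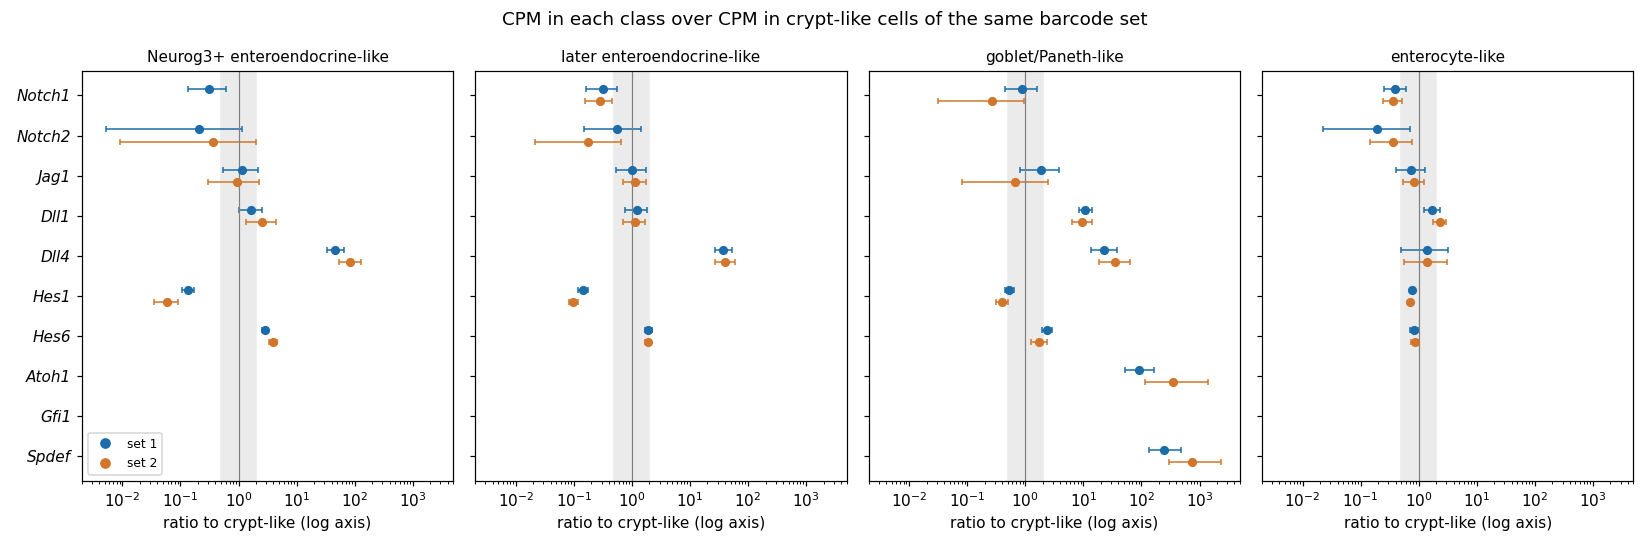
Ratio of the level of each gene in a class to its level in crypt-like cells of the same barcode set, on a log axis with 95% counting intervals, for 4 classes; the grey band spans 0.5 to 2, and genes under the UMI minimum or with 0 UMIs in the class are not drawn. Dll4 lies far right in both enteroendocrine-like classes and in goblet/Paneth-like cells, Hes1 lies left in the enteroendocrine-like classes, and Dll1, Atoh1 and Spdef lie far right in goblet/Paneth-like cells.

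Notch1, the main receptor of crypt cells, stood at 17.2 CPM [16.1 to 18.4] in crypt-like cells of set 1 and at 16.5 [15.1 to 17.9] in set 2 (825 and 552 UMIs). Neurog3-positive cells held 8 Notch1 UMIs in set 1, or 5.39 CPM [2.33 to 10.6], and 0 UMIs in set 2. Against crypt-like cells this was 3.19-fold lower in set 1. In set 2 it was 4.49-fold lower with the 0 set at a floor of 3 UMIs of the class sum, and the interval of the ratio ran from 0 to 0.275. Notch1 was thus a crypt gene that enteroendocrine-like cells of both kinds held at low levels. Later enteroendocrine-like cells had 5.46 and 4.57 CPM, which was 3.15-fold and 3.6-fold lower than in crypt-like cells. Enterocyte-like cells had 6.85 [4.29 to 10.4] and 5.91 [4.07 to 8.3] CPM, 2.51-fold and 2.78-fold lower. Within each set the intervals of these 3 classes overlapped one another and lay below that of crypt-like cells. Goblet/Paneth-like cells were at 15.4 CPM [7.67 to 27.5] in set 1 and 4.33 [0.524 to 15.6] in set 2, on 11 and 2 UMIs, and were not called. After thinning, 8.21% and 8.07% of crypt-like cells had a Notch1 UMI, against 2.24% and 0% of Neurog3-positive cells.

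Notch2, the second receptor, had a lower level than Notch1 in crypt-like cells, at 3.28 CPM [2.78 to 3.83] and 3.43 [2.83 to 4.12] (157 and 115 UMIs). Enterocyte-like cells held 2 and 7 UMIs, or 0.622 and 1.25 CPM. The ratios to crypt-like cells were 0.19 [0.0228 to 0.698] and 0.366 [0.144 to 0.778], so the low call rested on very few molecules. Enterocyte-like cells also had more mitochondrial RNA, a median of 14.0% and 14.3% of UMIs against 9.21% and 9.03% in crypt-like cells, and the part of this in the receptor levels was not tested. With a mitochondrial limit of 10%, or with the gate cuts halved, 0 members were called there. Goblet/Paneth-like cells had 0 Notch2 UMIs in both sets, where 3 UMIs would have been 4.19 and 6.49 CPM, above the crypt level, so no difference was detectable. Neurog3-positive cells had 1 UMI in each set.

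Dll4, a membrane ligand that activates Notch on neighbouring cells, marked the enteroendocrine-like cells. Its level was 1.34 CPM [1.03 to 1.71] in crypt-like cells of set 1 and 1.04 [0.727 to 1.45] in set 2, on 64 and 35 UMIs. Neurog3-positive cells reached 61.4 [49.4 to 75.3] and 85.6 [66.7 to 108], which was 46.0-fold [33 to 64.3] and 82.0-fold [53.9 to 127] higher. Later enteroendocrine-like cells followed at 50.1 [41.2 to 60.4] and 41.7 [35 to 49.3], so in set 1 their interval overlapped that of Neurog3-positive cells and in set 2 it lay below. Cells that passed both gates had 33.4 and 45.2 CPM, and goblet/Paneth-like cells 30.7 [19.3 to 46.6] and 36.8 [21.4 to 58.9], with overlapping intervals. These goblet/Paneth-like levels were 23.0-fold [13.5 to 37.9] and 35.2-fold [18.5 to 64.6] above the crypt-like ones. Dll4 thus stood far above the crypt level in the enteroendocrine-like and the goblet/Paneth-like classes. Tuft-like cells had 26.1 CPM [8.48 to 61] in set 1 on 5 UMIs and 0 UMIs in set 2, where 3 UMIs would have been 162 CPM. Enterocyte-like cells, at 1.87 and 1.43 CPM, overlapped crypt-like cells. Annexin-gated cells had 0 UMIs in both sets, where 3 UMIs would have been above the crypt level, so no difference was detectable.

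The Dll4 signal was spread over many cells. After thinning, 25.5% and 31.9% of Neurog3-positive and 20.8% and 19.0% of later enteroendocrine-like cells had a Dll4 UMI, against 0.728% and 0.57% of crypt-like and 0.911% and 0.979% of enterocyte-like cells. The 3 cells richest in Dll4 held 14.3% and 18.6% of its UMIs in Neurog3-positive cells. Neurog3-positive cells supplied 26.7% and 22.3% of all Dll4 UMIs of their set and later enteroendocrine-like cells 32.3% and 43.6%, while these classes held 2.41% and 1.6%, and 3.56% and 6.43%, of all UMIs. Among later cells, those with at least 2 UMIs of Tph1, the serotonin-synthesis gene of enterochromaffin cells, had 50.8 [40 to 63.6] and 57.3 [46.4 to 69.9] CPM of Dll4. Those without had 48.5 [33.6 to 67.8] and 25.5 [18.3 to 34.6]. Their Dll4 intervals overlapped in set 1 and were apart in set 2.

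Dll1, the other Delta ligand of the crypt, had its peak elsewhere. It stood at 8.64 CPM [7.83 to 9.51] and 6.74 [5.89 to 7.68] in crypt-like cells and at 93.6 [72.6 to 119] and 64.9 [43.8 to 92.7] in goblet/Paneth-like cells, on 67 and 30 UMIs. That was 10.8-fold [8.25 to 14.1] and 9.63-fold [6.35 to 14.1] higher, with intervals far apart in both sets. The 3 richest cells held 40.3% and 70% of these UMIs, and 29.3% and 20.9% of goblet/Paneth-like cells had a Dll1 UMI after thinning, against 3.97% and 3.33% of crypt-like cells. Neurog3-positive cells had 14.2 [8.77 to 21.6] and 17.1 [9.36 to 28.7] CPM and enterocyte-like cells 14.6 [10.7 to 19.5] and 15.6 [12.5 to 19.2]. Those 2 classes overlapped each other, and neither was called against crypt-like cells, since set 1 fell short of 2-fold at 1.64 and 1.69. Later enteroendocrine-like cells, at 10.5 and 7.61 CPM, overlapped crypt-like cells. In tuft-like cells of set 1 Dll1 was at 78.4 CPM [43.9 to 129], on 15 UMIs from 9 cells, and in set 2 at 108 [13.1 to 390], on 2 UMIs from 2 cells. Both intervals overlapped those of goblet/Paneth-like cells.

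Set directly against each other, Neurog3-positive cells had 6.61-fold and 3.79-fold less Dll1 than goblet/Paneth-like cells and 3.97-fold and 6.8-fold less Hes1. Atoh1 and Spdef were also lower, which makes 4 of 6 members tested, but both reached the UMI minimum only through goblet/Paneth-like cells, so their part of the count had to come out low. Of the 8929 genes tested in that comparison, 3.33% were called lower, 13.2% higher and 16.5% in either direction. Dll4 was not called between them, because 61.4 against 30.7 CPM in set 1 fell just short of 2-fold, although the ratio was 2.33 [1.36 to 4.22] in set 2. Between these classes Dll1 was thus higher in goblet/Paneth-like cells in both sets, and Dll4 was high in both.

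Jag1, a Jagged ligand, was at similar levels in the larger classes. Crypt-like cells had 5.88 CPM [5.22 to 6.61] and 6.5 [5.67 to 7.42], and Neurog3-positive, later enteroendocrine-like and enterocyte-like cells lay between 4.36 and 7.31 with intervals that overlapped them. Annexin-gated cells were higher, at 37.3 [21.3 to 60.5] and 20.7 [14.2 to 29.2] CPM on 16 and 32 UMIs. That was 6.34-fold [3.57 to 10.5] and 3.18-fold [2.13 to 4.63] above crypt-like cells. Jag1 was the sole member called of 7 tested there, where 5.51% of all genes were called higher, 1.23% lower and 6.74% in either direction. Cells that passed other combinations of gates had 17.8 [8.13 to 33.7] and 26.7 [14.6 to 44.8] CPM of Jag1, overlapping annexin-gated cells, and goblet/Paneth-like cells 11.2 [4.83 to 22] and 4.33 [0.524 to 15.6], overlapping crypt-like cells. Within the annexin-gated class 3 cells held 75% and 50% of the Jag1 UMIs.

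**Figure D2:**
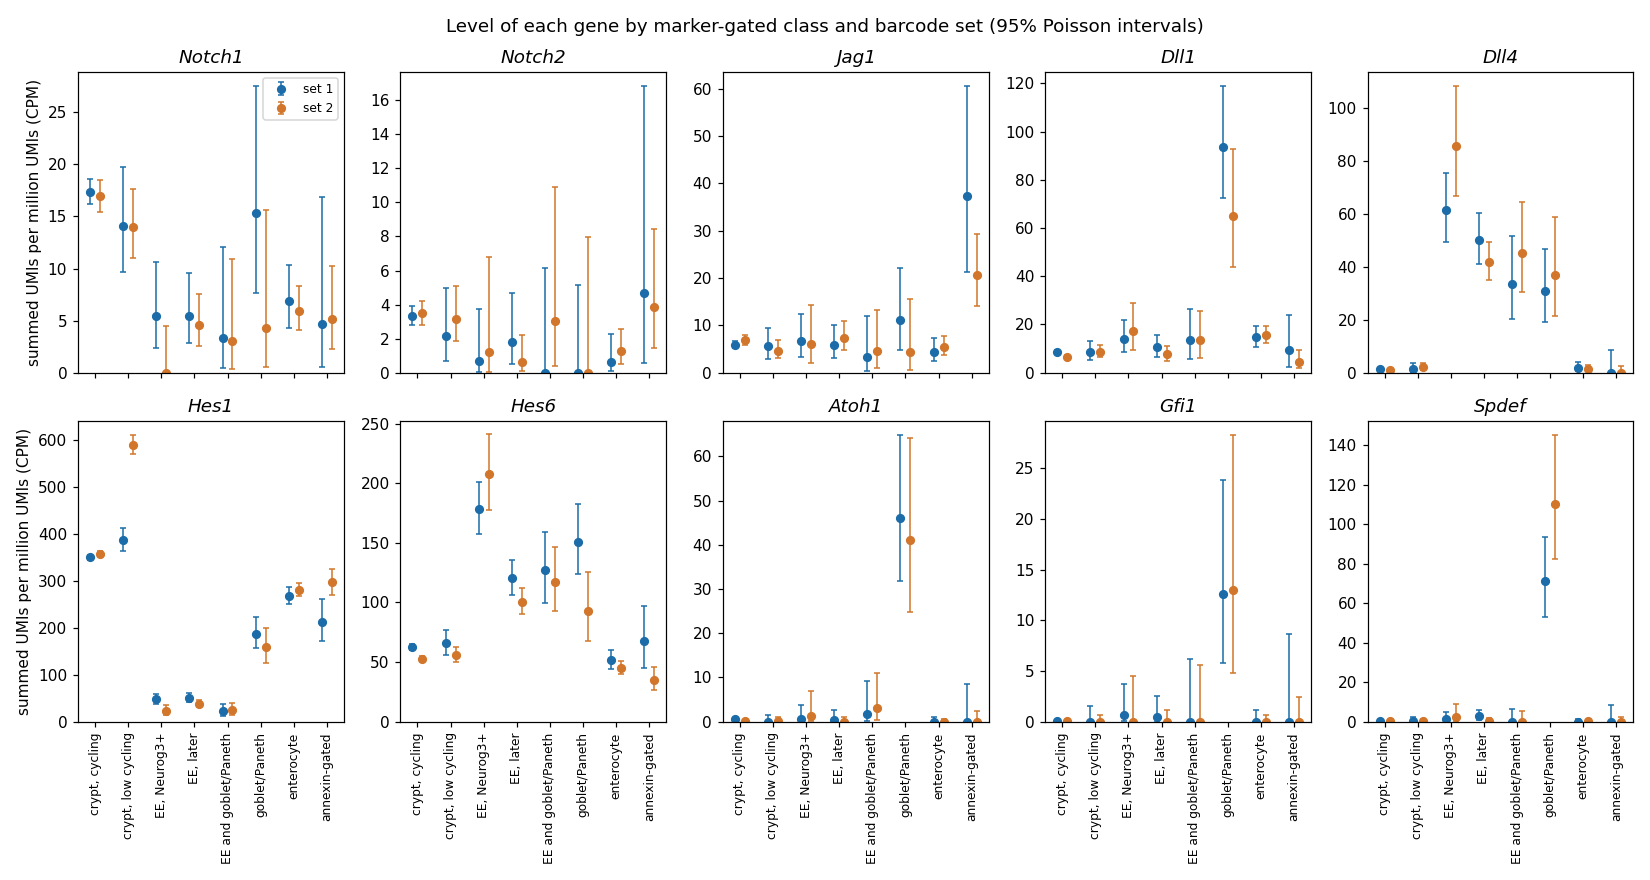
Summed level in CPM for each of the 10 genes in 8 classes, set 1 in blue and set 2 in orange, with exact 95% Poisson intervals on linear axes that start at 0 and differ between panels. Hes1 is lowest in the 3 enteroendocrine classes, Dll4 is high in the enteroendocrine and goblet/Paneth-like classes, and Dll1, Atoh1, Gfi1 and Spdef peak in goblet/Paneth-like cells.

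Hes1, the repressor that Notch signalling switches on and that holds Atoh1 down, had the most UMIs of any member. Crypt-like cells had 352 CPM [346 to 357] and 394 [387 to 401], on 16850 and 13214 UMIs. Neurog3-positive cells had 47.2 [36.8 to 59.6] and 23.2 [14 to 36.3], 7.45-fold and 17.0-fold less, and later enteroendocrine-like cells 50.5 [41.6 to 60.9] and 38.4 [32 to 45.7], 6.96-fold and 10.3-fold less. The remaining Hes1 of these classes sat in few cells, since 3 cells held 52.9% and 52.6% of it in Neurog3-positive and 49.5% and 42.1% in later cells. After thinning 12.5% and 8.97% of Neurog3-positive cells had a Hes1 UMI, against 71.1% and 69.4% of crypt-like cells. Between these ends lay enterocyte-like cells at 267 [249 to 286] and 280 [266 to 294] CPM and goblet/Paneth-like cells at 187 [157 to 222] and 158 [124 to 199]. Goblet/Paneth-like Hes1 was 0.533 [0.446 to 0.631] and 0.401 [0.314 to 0.504] of the crypt-like level, which was not a call because set 1 missed 2-fold, and 3 cells held 63.4% and 46.6% of it. The order from high to low was crypt-like, enterocyte-like, goblet/Paneth-like and then enteroendocrine-like cells in both sets, with the intervals of neighbouring steps apart. Annexin-gated cells, at 212 [171 to 260] and 296 [270 to 325], took no fixed place among the middle classes.

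Among cells of the enteroendocrine gate alone, Hes1 had its lowest value where Neurog3 was highest. Enteroendocrine-like cells with at least 5 Neurog3 UMIs per 10000 had 23.5 CPM [14.4 to 36.3] and 11.3 [4.13 to 24.5] of Hes1. Those with less Neurog3 had 63.9 [47.8 to 83.5] and 39.1 [21.9 to 64.6], and those with none 54.0 [44.3 to 65.2] and 38.9 [32.4 to 46.4]. In set 1 the Neurog3-high interval lay below both others, and in set 2 it lay below that of cells with no Neurog3 and overlapped that of cells with little. Cells that passed both the enteroendocrine and the goblet/Paneth gate had 21.7 [11.6 to 37.1] and 24.1 [13.8 to 39.2], which overlapped the Neurog3-high cells in both sets. Dll4 was at 57.7 CPM [42.7 to 76.2], 66.3 [49.9 to 86.3] and 48.5 [39.3 to 59.2] in set 1 for high, little and no Neurog3, intervals that overlapped. In set 2 it was at 97.6 [72.9 to 128], 75.7 [50.7 to 109] and 39.5 [32.9 to 47.1], with cells without Neurog3 below both others. Median depth was 13566.5, 13393 and 15067 UMIs for high, little and no Neurog3.

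Hes6, a Hes-family protein described in neurons as an opponent of Hes1, was higher in Neurog3-positive than in crypt-like cells. It stood at 62.6 CPM [60.4 to 64.9] and 53.0 [50.6 to 55.5] in crypt-like cells and at 178 [157 to 201] and 208 [178 to 242] in Neurog3-positive cells, which was 2.84-fold [2.5 to 3.23] and 3.92-fold [3.33 to 4.59] higher. Later enteroendocrine-like cells had 120 [106 to 136] and 100.5 [89.9 to 112], 1.92-fold and 1.90-fold above crypt-like cells and so just under the call. Their level was 0.675 [0.567 to 0.804] and 0.483 [0.4 to 0.585] of that in Neurog3-positive cells. None of the 6 members tested between later and Neurog3-positive cells was called in both sets, where 1.14% of all genes were called higher, 1.11% lower and 2.25% in either direction. Goblet/Paneth-like cells had 151 [124 to 182] and 93.0 [67.3 to 125] CPM of Hes6, 2.41-fold and 1.76-fold above crypt-like cells and not called. Enterocyte-like cells had 52.0 [44.4 to 60.5] and 45.0 [39.6 to 50.9], 0.83 [0.706 to 0.97] and 0.849 [0.74 to 0.969] of the crypt level. Hes6 was not particular to enteroendocrine-like cells: the few tuft-like cells had 251 CPM [185 to 333] on 48 UMIs in set 1 and 432 [186 to 851] on 8 UMIs in set 2, intervals that overlapped those of Neurog3-positive cells.

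Atoh1, the commitment factor of the secretory lineage, was by far highest in goblet/Paneth-like cells, at 46.1 CPM [31.7 to 64.8] and 41.1 [24.7 to 64.2] on 33 and 19 UMIs. Crypt-like cells had 0.501 [0.321 to 0.745] and 0.119 [0.0325 to 0.305] on 24 and 4 UMIs, so the goblet/Paneth-like level was 92.1-fold [52.8 to 163] and 345-fold [115 to 1393] higher. Atoh1 was no longer called without the 3 cells richest in it, or with a mitochondrial limit of 10%. Enterocyte-like and annexin-gated cells had 0 Atoh1 UMIs in both sets. The floor of 3 UMIs would have been above the crypt level in each, so no difference from crypt-like cells was detectable. Neurog3-positive cells, although secretory, held 1 Atoh1 UMI in each set, and later enteroendocrine-like cells held 1 and 0. Goblet/Paneth-like cells carried 45.8% and 67.9% of all Atoh1 UMIs while holding 1.16% and 0.904% of all UMIs.

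Spdef, which drives goblet and Paneth maturation, showed the same pattern at 71.3 CPM [53.1 to 93.7] and 110.3 [82.2 to 145] in goblet/Paneth-like cells (51 UMIs in each set). Crypt-like cells had 0.292 and 0.149 CPM on 14 and 5 UMIs, giving ratios of 244 [133 to 477] and 740 [297 to 2376]. Gfi1, a zinc-finger repressor that turns secretory precursors away from the enteroendocrine fate, had 9 and 6 UMIs in goblet/Paneth-like cells, or 12.6 [5.75 to 23.9] and 13.0 [4.76 to 28.3] CPM, and 2 and 1 in crypt-like cells. Its ratios were 301 [62.4 to 2867] and 435 [52.8 to 20023], and it stayed under the UMI minimum. Neurog3-positive cells, where Neurog3 itself was at 879 and 1267 CPM, held 2 and 2 Spdef and 1 and 0 Gfi1 UMIs. Their Spdef level of 1.35 and 2.45 CPM was 4.62 [0.509 to 20.1] and 16.4 [1.56 to 100.2] of the crypt-like level, under the UMI minimum, and 0.0189 and 0.0222 of the goblet/Paneth-like level. Their Atoh1 level was 0.674 and 1.22 CPM, against 0.501 and 0.119 in crypt-like cells. In goblet/Paneth-like cells Neurog3 was at 193 and 77.9 CPM, Neurod1 at 44.7 and 19.5 and Insm1 at 302 and 125, all of them enteroendocrine factors, and the part of these cells in the members' levels was not tested.

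**Figure D3:**
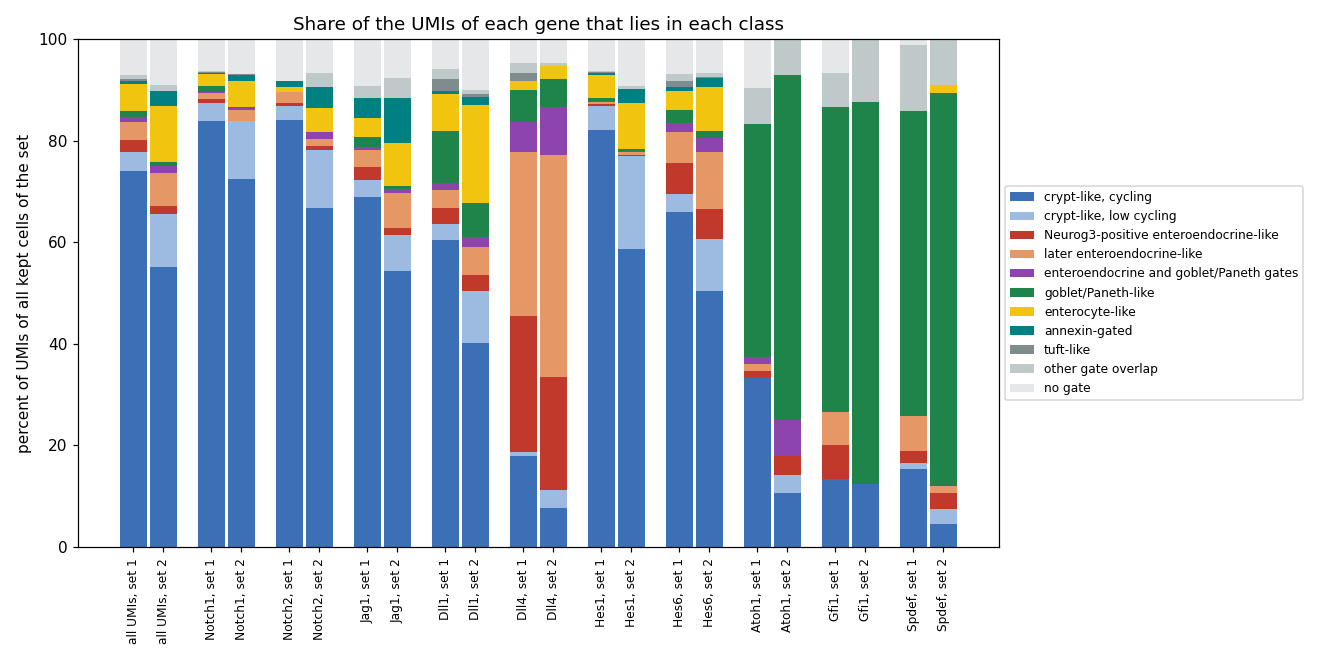
Stacked percent of the UMIs of each gene that fell in each of 11 classes, one bar per gene and set, with all UMIs at the left for comparison. Most UMIs of Atoh1 in set 2, and of Gfi1 and Spdef in both sets, lie in goblet/Paneth-like cells, and most Dll4 UMIs lie in the 2 enteroendocrine-like classes.

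Within the 48 goblet/Paneth-like cells a UMI was found for Atoh1 in 20, Spdef in 25, Gfi1 in 11, Dll1 in 26, Dll4 in 24, Hes1 in 36 and Neurog3 in 9. Of the 20 cells with Atoh1, 15 had Spdef (75%), against 35.7% of cells without Atoh1. Spdef was also found in 10 of the 11 cells with Gfi1. All 3 factors were seen together in 6 cells, 2 of them in 14, 1 in 10 and none in 18. The factors thus overlapped in the same cells, whereas 1 of the cells with Atoh1 also had Neurog3. Dll4 had a UMI in 16 of the 20 Atoh1 cells (80%) and in 28.6% of the rest. The 9 cells with Neurog3 had UMIs of Hes6 in 9, of Dll1 in 7, of Dll4 in 2, of Spdef in 2 and of Gfi1 in 0. Dll1 was also found in 13 of the 20 cells with Atoh1, 14 of the 25 with Spdef and 7 of the 11 with Gfi1, and 2 of the 24 cells with Dll4 had Neurog3. A UMI was also found in 91.4% (Hes1), 72.5% (Hes6), 33.8% (Dll1), 4.46% (Dll4), 0.372% (Spdef) and 0% (Atoh1 and Gfi1) of the 269 enterocyte-like cells, whose median depth was 34075, and UMIs from free RNA were not estimated. Median depth was 28854.5 UMIs in cells with Atoh1 and 21551.5 in those without, and the part of depth in these shares was not tested. On the CPM scale, Dll4 was 48.4 [27.7 to 78.6] and 45.1 [24 to 77.2] with Atoh1 and 15.6 [5.72 to 33.9] and 23.0 [6.26 to 58.8] without, intervals that overlapped in both sets.

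The 12 goblet/Paneth-like cells without a Hes1 UMI had a median of 1973 UMIs, against 27714.5 in those with one. By level, cells with Spdef had 69.2 CPM [43.9 to 104] and 148 [111 to 195] of Hes1 and cells without had 290 [238 to 349] and 188 [116 to 287], apart in set 1 and overlapping in set 2. Among 31 cells that passed other combinations of gates, 5 had a UMI of at least 1 of the 3 factors and 4 of these had 2 or 3. This class held 12.9% and 9.09% of all Spdef UMIs. In the larger classes the factors were rare, and a UMI of any of them was found in 39 of 2350 crypt-like, 7 of 164 Neurog3-positive, 9 of 350 later enteroendocrine-like and 1 of 269 enterocyte-like cells.

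**Figure D4:**
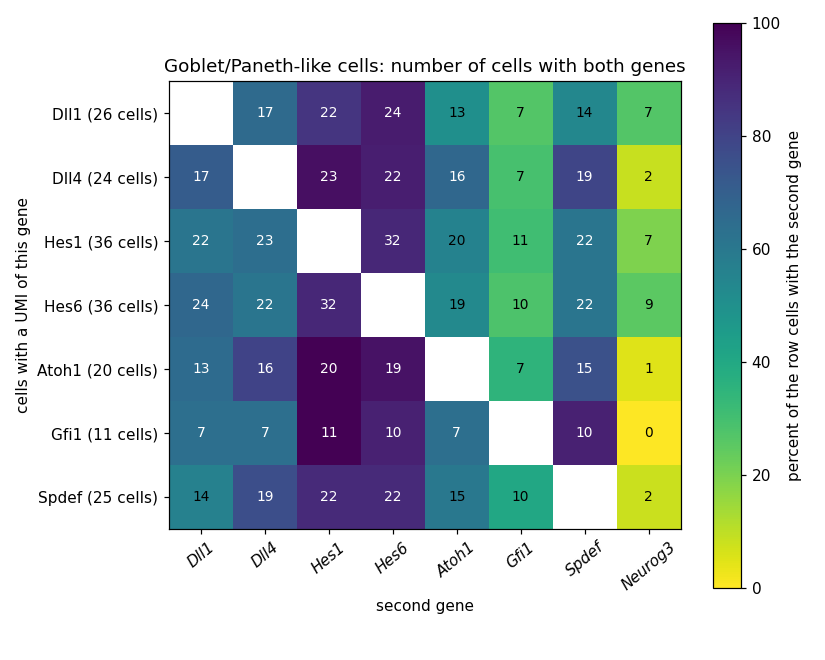
Number of goblet/Paneth-like cells with a UMI of both the row gene and the column gene, with colour giving the percent of the row gene's cells. Atoh1, Spdef and Dll4 share most of their cells, and few of their cells have Neurog3.

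Among crypt-like cells, 21 of 2350 had an Atoh1 UMI (18 in set 1 and 3 in set 2), and the members were compared between these and the rest. Dll1 was at 21.4 CPM [12 to 35.3] and 48.5 [17.8 to 106] in cells with Atoh1, on 15 and 6 UMIs, against 8.45 [7.64 to 9.32] and 6.58 [5.74 to 7.51] without. It was 2.53-fold and 7.37-fold higher and the sole member called of 7 tested, where 8 of 12452 genes (0.0642%) were called higher and 0 lower. Dll4 had 5 and 1 UMIs in cells with Atoh1, or 7.14 and 8.09 CPM against 1.25 and 1.02, and was not called. Hes1 was at 395 and 291 CPM in these cells against 351 and 394, with ratios of 1.13 [0.997 to 1.27] and 0.738 [0.517 to 1.02]. The ratios lay on opposite sides of 1 and both intervals held 1, so no direction was shown. Median depth was 38924 UMIs in crypt-like cells with Atoh1 and 35049 in those without, and the part of depth was not tested. Set 2 gave only 3 such cells, and leaving out the 5% of cells with the most UMIs, or halving or doubling the gate cuts, left 0 members called.

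Crypt-like cells with low cycling genes did not differ from cycling ones by a call in any of the 7 members tested, where 0.249% of all genes were called higher, 2.49% lower and 2.74% in either direction. Hes1 was the member whose intervals were apart in both sets, at 387 CPM against 350 in set 1 and 589 against 357 in set 2. Their leading genes included Hspb1, Hspa1b and Hspa1a, which encode heat shock proteins, and Cyr61, with Hspa1a at 221 and 193 CPM against 64.0 and 105 and Cyr61 at 28.1 and 65.9 against 11.6 and 38.3, and the part of these in Hes1 was not tested.

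Between the barcode sets, taken over all kept cells, a gene was called when it differed at least 1.5-fold with intervals apart. Atoh1 was the sole member called of 10, at 1.17 CPM [0.914 to 1.47] in set 1 and 0.548 [0.364 to 0.792] in set 2 (72 and 28 UMIs), 2.13-fold lower in set 2. Of all 15474 genes tested, 2.93% were called lower in set 2, 4.25% higher and 7.19% in either direction, so 1 of 10 members is close to the background. The other 9 ratios of set 2 to set 1 lay between 0.643 for Gfi1 and 1.11 for Dll4, and the best-counted, Hes1, was at 1.07 [1.04 to 1.09]. Goblet/Paneth-like cells were 33 of 2300 in set 1 (1.43% [0.99 to 2.01, exact Clopper-Pearson]) and 15 of 1766 in set 2 (0.849% [0.476 to 1.4]), shares whose intervals overlapped. The mix of other classes differed, with intervals apart for cycling crypt-like (55.0% and 44.1%), low cycling crypt-like (4.48% and 11.6%), later enteroendocrine-like (6.52% and 11.3%), enterocyte-like (4.52% and 9.34%), annexin-gated (0.652% and 1.64%) and ungated cells (20.2% and 14.9%). With every class given the same weight, the log2 ratio of Atoh1 on the pseudocount scale went from -0.49 to -0.10. Within goblet/Paneth-like cells Atoh1 was 0.891 [0.479 to 1.61] of the set 1 level and not called, as was every other member, where 1.24% of genes were called higher, 1.62% lower and 2.86% in either direction. In crypt-like cells it was at 0.501 and 0.119 CPM on 24 and 4 UMIs, 4.2-fold lower in set 2, where 2.86% of genes were called higher, 2.95% lower and 5.81% in either direction. No call here has a direction with respect to melatonin.

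Hes1 was called between the sets in 2 classes, in opposite directions. In Neurog3-positive cells it was 47.2 CPM in set 1 and 23.2 in set 2, a ratio of 0.492 [0.28 to 0.827], where 1.06% of genes were called higher, 1.66% lower and 2.72% in either direction, and 3 cells held 52.9% and 52.6% of its UMIs. In low cycling crypt-like cells it was 387 and 589, a ratio of 1.52 [1.41 to 1.64], where 1.43% were called higher, 1.76% lower and 3.19% in either direction. Cycling crypt-like cells, which hold most Hes1 UMIs, had 350 CPM [344 to 355] and 357 [350 to 364], intervals that overlapped. Under 1.5-fold, and so not called, were ratios with intervals clear of 1 in later enteroendocrine-like cells (0.759 [0.583 to 0.989]) and in annexin-gated cells (1.4 [1.11 to 1.77]).

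**Figure D5:**
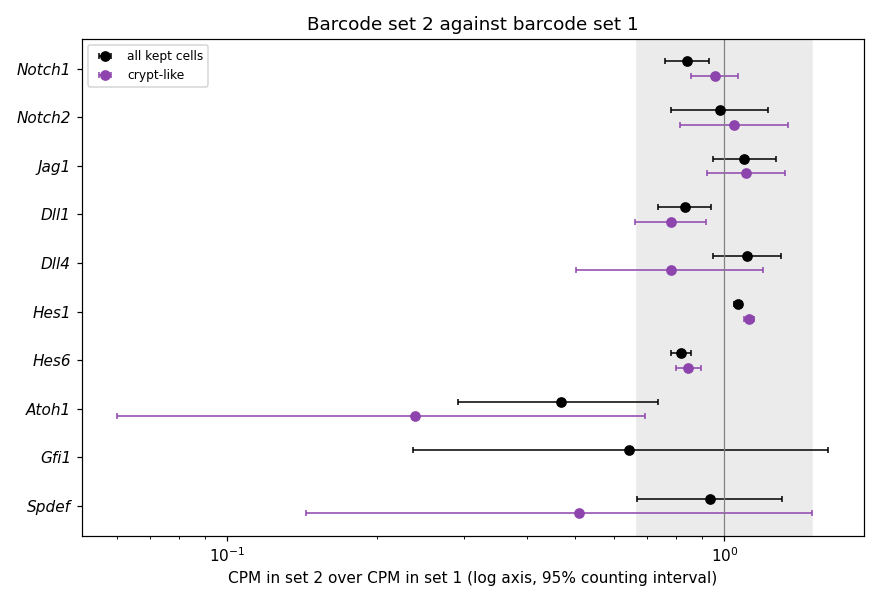
Ratio of set 2 to set 1 for each gene over all kept cells (black) and over crypt-like cells (purple), on a log axis with 95% counting intervals and a grey band that spans 1.5-fold either way. Atoh1 is the one gene whose points lie outside the band with intervals clear of 1.

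Of 56 other Notch pathway genes, 48 were tested in Neurog3-positive against crypt-like cells, and 14 were called higher and 1 lower, counts near the 24.3% and 6.79% of all genes. Their median log2 ratios were 0.99 and 0.69, against 0.44 and 0.42 for all genes. Dner, a non-canonical ligand, went from 0.23 to 62.7 CPM in set 1 and from 0.0596 to 69.7 in set 2. Mfng, a fringe glycosyltransferase that alters ligand choice, went from 0.313 to 33.7 and from 0.179 to 30.6. Dner and Mfng reached the UMI minimum in set 2 only through Neurog3-positive cells, so their part of the count had to come out high. Whether other list genes did so was not examined. Tle2, a co-repressor of Hes proteins, went from 0.48 to 37.1 and from 0.388 to 44.0. Numbl, a Numb-family adaptor linked to Notch inhibition, was 35.1-fold and 35.2-fold higher, Hes7 13.5-fold and 29.3-fold, Hey1 13.3-fold and 31.9-fold, Dtx3 16.7-fold and 14.8-fold and Maml3, a co-activator, 5.49-fold and 4.95-fold. Rbpj itself was 2.02-fold and 2.06-fold higher. Dtx4 was 3.28-fold and 5.36-fold lower.

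In later enteroendocrine-like cells 13 of 47 of these Notch genes were called higher, Jag2 among them at 6.06-fold and 2.71-fold, and 2 lower, counts near the 23.8% and 8.83% of all genes. Nrarp, a feedback inhibitor that Notch induces, was 3.09-fold and 3.9-fold lower there and 2.41-fold and 4.22-fold lower in enterocyte-like cells. Enterocyte-like cells had 2 of 45 higher (Hes2 and Dtx3l) and 4 lower (Lfng, Poglut1, Dtx4 and Nrarp), against 9.7% and 13.3% of all genes. Goblet/Paneth-like cells had 0 of 45 called in either direction, with medians of -0.04 and -0.19, next to those of all genes at -0.03 and -0.16. Over all kept cells 2 of 53 were higher in set 2 (Dlk1, at 0.0487 and 1.68 CPM, and Hes2, at 1.23 and 2.35) and 1 lower (Mfng, 1.92-fold), near the 4.25% and 2.93% of all genes. Dtx1, Hes3 and Heyl had 0 UMIs.

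Of 36 other secretory fate genes, 3 of which (Neurog3, Neurod1 and Dclk1) were also used in the gates, 20 of 32 tested were called higher and 2 lower in Neurog3-positive cells, where 24.3% and 6.79% of all genes were. Those higher included Pax4, Fev, Rfx6, Nkx2-2 and Insm1, all enteroendocrine factors, and those lower were Id1, from 136 to 47.2 and from 69.4 to 29.4 CPM, and Ehf. Neurog3 defines the Neurog3-positive cells and Neurod1 is a marker of their gate, so their part of this count follows from the gating. In goblet/Paneth-like cells 11 of 31 were higher and 1 lower, beside 2.62% and 1.38% of all genes, and the enteroendocrine genes Neurog3, Neurod1, Insm1, Nkx2-2 and Rfx6 were among the 11. Creb3l1 and Creb3l4, membrane-bound factors of secretory cells, were 44.1-fold and 117-fold, and 42.4-fold and 129-fold, higher there. Klf4, a goblet cell factor, was 5.29-fold and 6.07-fold higher, and Id3 was 2.5-fold and 3.61-fold lower. Enterocyte-like cells had 3 of 30 higher and 8 lower, beside 9.7% and 13.3% of all genes, with Sox4, a factor of secretory precursors, 4.38-fold and 7.38-fold lower. Over all kept cells 3 of 35 were higher in set 2 and 6 lower, where 4.25% and 2.93% of all genes were, among the lower the inhibitors of basic helix-loop-helix factors Id1, at 127 and 63.8 CPM, Id2, at 81.1 and 29.1, and Id3, at 43.2 and 22.0. Gfi1b had 0 UMIs.

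The genes most like each member were ranked by Pearson's r of log2(CPM + 1) over 16 sums (8 classes in 2 sets) among 9823 genes. These sums share libraries, gates and depth, and r is given as a description. Dll4 was nearest to Wnt3 (0.98), Ceacam1 (0.98) and Rab43 (0.98), and Hes6 to Ptov1 (0.97), Prex1 (0.95) and Acadsb (0.95). Hes1 was nearest to Mrpl42 (0.98), Cnih4 (0.98) and Epb41l4aos (0.98), Notch1 to Snrnp25 (0.91), Acot1 (0.91) and Pycard (0.90), and Jag1 to Duox2 (0.95), Tmem71 (0.93) and Myof (0.93). Notch2, which stayed under 10 CPM in every sum, was nearest to Mrm3 (0.85), Mbd2 (0.85) and Nsun5 (0.83). The secretory members ranked near one another. Dll1 was nearest to Atoh1 (0.92), Gfi1 (0.90) and Ccl9 (0.89), Atoh1 to Capn9 (0.96), Gfi1 (0.94) and Tpsg1 (0.94), Gfi1 to Ern2 (0.98), Spdef (0.97) and Tpsg1 (0.96), and Spdef to Gfi1 (0.97), Ccl9 (0.95) and Ern2 (0.94). Tpsg1 is a goblet gate marker, so its likeness follows in part from the gate. Between members, Dll4 went with Hes6 (0.91) and against Hes1 (-0.84), and Hes1 went with Notch1 (0.75) and against Hes6 (-0.79).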

How the data were processed

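The deposited matrix holds whole-number UMI counts per gene and barcode, which the authors deposited as whole numbers with no scaling seen in the values. Per the submitters' processing notes it was made with bcl2fastq 2.20.0, Cell Ranger 3.1.0 and STAR 2.7.3a, and the genome build is not given in the sources used here. The files of both samples were byte for byte the same (3 of 3) and counted as 1 sample. Cells were filtered as in the report and gated by summed markers per 10000 UMIs with at least 3 markers detected: enteroendocrine 50, enterocyte 100, goblet/Paneth 50, revival 10, tuft 5, crypt stem 3 and cycling 5. Cells just under a cut (from a 0.5 share of it) and just over and in the gate (up to double) numbered 66 and 26 for enteroendocrine, 209 and 84 for enterocyte, 117 and 47 for goblet/Paneth, 247 and 27 for revival (of 68 in that gate), 4 and 2 for tuft, 433 and 924 for crypt stem and 320 and 443 for cycling. These cuts were set from the marker sums alone, after the files were seen. The members and gene lists were chosen with earlier results of these data known. The extra class contrasts, the sub-splits and the use of the UMI minimum for members were added after levels had been seen, as was reading the planned Atoh1-high cells as cells with at least 1 Atoh1 UMI. No doublet caller was run, and leaving out the 5% of cells with the most UMIs stood in for one.

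Named were all 10 members, list genes called in a class contrast or between sets (the 8 largest at most) and, for each member, the 3 most similar genes among those at 10 CPM or more in at least 1 class of each set. Other genes outside this rule were chosen after their values were seen. Log2 ratios used a pseudocount of 1 CPM, which understates the change of low genes. The floor of a sum at 0 is 3 UMIs per class and set. Thinned shares are hypergeometric expectations at 5000 UMIs and leave out shallower cells. The calling rule was tested on simulated data for set 2 against set 1 over 15474 genes, where 200 of 200 genes changed 2-fold were recovered and 0.124% of unchanged ones were called. The class contrasts, which rest on fewer cells, were not simulated, so this gives no rate for them. Python 3.11.15, numpy 2.4.6, scipy 1.17.1, pandas 2.3.3 and matplotlib 3.10.9 were used.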

Additional observations from a re-analysis of the deposited data

How the results depend on the processing

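The counts of members called for 6 comparisons were recomputed under other filters, gate cuts and summaries, and those of the other contrasts and of the sets within a class were not. The count between barcode sets was 1 (Atoh1, whose log2 ratio went from -0.49 to -0.10 with every class given the same weight) and that for Neurog3-positive cells was 4 with the same 4 members in every alternative run. For later enteroendocrine-like cells it was 5 with the mean of the CPM of each cell, which added Notch2 and Hes6, and otherwise 3. For enterocyte-like cells it fell from 2 to 0 with a mitochondrial limit of 10%, to 1 with the mean cell CPM and to 0 with the gate cuts halved. For crypt-like cells with Atoh1 it fell from 1 to 0 without the 5% of cells with the most UMIs, with the cuts halved and with the cuts doubled, and leaving out the 3 richest cells gave no value because no cell of set 2 was left. The goblet/Paneth-like count was 4 or 5: Atoh1 was lost at the 10% mitochondrial limit (Hes6 gained) and without the 3 richest cells (Hes1 gained), and without a UMI minimum, an alternative added after seeing the data, Gfi1 made it 5. Hes1 was also called lower there with the mean cell CPM, without the 5% of cells with the most UMIs and with the cuts doubled, and Hes6 higher with the cuts halved. Halved and doubled cuts could not bear on the count between sets, which uses all kept cells. Of the 10 ratios between sets, 4 moved beyond counting error with no mitochondrial limit, 4 with every class given the same weight and 3 in crypt-like cells alone. Another 2 moved so with a mitochondrial limit of 10% (Dll1 and Hes1) and 1 with the mean of the CPM of each cell (Hes6). Among those that moved, the log2 ratio changed sign for Dll1 (-0.24 to 0.05, no mitochondrial limit), Jag1 (0.12 to -0.38) and Spdef (-0.05 to 0.53, both with equal weights) and Dll4 (0.13 to -0.19, crypt-like cells alone). Shares of cells moved with the thinning depth, in 20 of 20 cases without thinning. In each case the cause was not tested. No paired analysis was possible because the labels give 1 library per group and the matrix counts as 1 sample. Depth limits Gfi1, Atoh1 and Spdef most, with 23, 100 and 151 UMIs in all kept cells.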
